A study of Mus musculus with 9 samples.

Results

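The cytosolic ribosomal protein genes, which code for the protein part of the ribosomes that translate nuclear-encoded mRNAs, were followed in mouse granulosa cells during ovulation. Members were protein-coding genes with an Rpl or Rps symbol and a number, together with Rplp0, Rplp1, Rplp2 and Rpsa, and without the Rps6k kinases and the names ending in -ps. The rule gave 81 of the 25059 gene identifiers in each table, 31 named for the small subunit and 50 for the large subunit. Granulosa cells, the somatic cells around the oocyte in the ovarian follicle, came from Kunming mice at postnatal day 21. All groups had received 5 IU of PMSG, a gonadotropin that drives follicle growth, and the cells were taken 48 h after PMSG with no hCG yet (0 h), or 1 h and 6 h after 5 IU of hCG, which binds the receptor of luteinising hormone and starts ovulation. Each time had 3 RNA-seq libraries, 9 in all, and no label says that they came from separate animals or pools, so the p-values reflect how far these libraries vary, and that variation may be technical. Time after hCG and time of day cannot be told apart in this design.

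A eukaryotic ribosome holds a single copy of most of its proteins, and the genes for them are transcribed at high, closely matched rates in most cells. Most of their mRNAs start with a cytosine followed by a run of pyrimidines, the 5′ terminal oligopyrimidine (TOP) tract, through which mTORC1 and the binding protein LARP1 set how well they are translated. The ribosomal protein S6, the product of Rps6, is a classical substrate of the S6 kinases, and its phosphorylation is a common readout of gonadotropin signalling in granulosa cells. A change in mRNA level of these genes is therefore only a part of their known control, and translation was not measured in these libraries.

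Many of the start sites carry such a tract. Of the 78 members tested below, 58 had a promoter window in the RefSeq table (GRCm38.p6, the build mm10). A cytosine followed by at least 4 pyrimidines lay exactly at the annotated start of 13 of the 58 (22.4%), against 3.01% of all 27025 genes with a window. A tract of 6 bases or more that began within 20 bases of the start, read on the sense strand, stood in 39 of the 58 (67.2%), against 34.8% of all genes. Of these, 7 are printed, chosen to include the most abundant member (Rps27), the S6 gene and a tract of 20 bases (Rpl27a). Each line gives 10 bases before to 20 bases from the annotated start in mm10, written 5′ to 3′, with the pyrimidine tract in capitals.
Rps27, chr3:90213629-90213658, minus strand: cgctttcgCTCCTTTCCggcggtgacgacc
Rpl38, chr11:114668570-114668599, plus strand: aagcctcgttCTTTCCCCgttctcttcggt
Rps6, chr4:86857348-86857377, minus strand: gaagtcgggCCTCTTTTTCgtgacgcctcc
Rps10, chr17:27635225-27635254, minus strand: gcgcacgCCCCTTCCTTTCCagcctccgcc
Rpl15, chr14:18270967-18270996, minus strand: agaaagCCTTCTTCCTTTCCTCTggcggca
Rpl35, chr2:39005112-39005141, minus strand: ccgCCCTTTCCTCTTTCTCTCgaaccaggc
Rpl27a, chr7:109519185-109519214, plus strand: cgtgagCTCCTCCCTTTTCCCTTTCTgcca
Of the next 4, Rpl24, Rpl27 and Rpl36al had the largest higher calls at 6 h against 0 h, and Rpl36a is the paralog of Rpl36al. They were picked with their values known, and none had a tract of 6 bases or more within 20 bases of its RefSeq start. The Rpl27 stretch ends upstream of the start in GENCODE (chr11:101442298), so a tract at that start would have been missed. Other members called at 6 h had a long tract. Among them were Rpl11 with 16 bases, lower against 0 h and 1 h, and Rpl10a with 10, lower against 1 h only.
Rpl24, chr16:55966265-55966294, plus strand: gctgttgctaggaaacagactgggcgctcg
Rpl27, chr11:101442235-101442264, plus strand: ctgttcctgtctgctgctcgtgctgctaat
Rpl36al, chr12:69184048-69184077, minus strand: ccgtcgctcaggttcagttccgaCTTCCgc
Rpl36a, chrX:134585644-134585673, plus strand: cccaggcaccgcctataaaCTTCCgttgcg
In this window of 300 bases (250 before to 50 from the start, both strands searched), the ETS family core CCGGAAG stood in 24 of the 58 members (41.4%, against 9.93% of all genes) and the GC box GGGCGG in 36 (62.1%, against 38.2%). The TATA box TATAAA stood in 6 (10.3%, against 15.7%). The cAMP response element TGACGTCA stood in 5 (8.62%, against 2.03%), namely Rpl13, Rpl18, Rpl26, Rpl27a and Rps9. These matches describe the letters of the windows and were not tested for binding.

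The label was checked against cell type markers. All 10 granulosa cell markers were tested, among them Foxl2 with 90.2 ± 5.75 FPKM and Inha with 5413 ± 263 FPKM at 0 h (SD, n = 3). The markers' summed level lay between 10016 and 10655 FPKM at 0 h, between 10008 and 15156 at 1 h and between 3900 and 4296 at 6 h. The sum of 17 oocyte markers lay between 65.7 and 103 FPKM at 0 h, between 82.4 and 103 at 1 h and between 123 and 186 at 6 h, and 14 of the 16 tested were higher at 6 h than at 0 h, against 28.8% of all tested genes. Theca and stroma markers summed to 239 to 362, 310 to 460 and 144 to 174 FPKM at 0, 1 and 6 h, endothelial markers to 23.4 to 32.3, 27.7 to 30.3 and 33.9 to 43.8, and leukocyte markers to at most 21.4. Erythroid markers summed to 128 to 198, 86.2 to 199 and 67.5 to 130 FPKM at 0, 1 and 6 h. The sums of the surface epithelium markers were 35.8 to 40.7, 36.6 to 45.2 and 35.8 to 42.6 FPKM. No marker of these lists was at 0 in all libraries. The part of these shifts in the results on ribosomal protein genes was not tested, and in such bulk samples fewer cells of a type and less RNA per cell cannot be told apart.

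FPKM, in which fragments are scaled to transcript length and to a size of the library, is the unit of every level given here, summed over the rows of a gene. How the library size was set is not given in the sources used here, and the deposited values were level on the median gene. The ribosomal protein genes were among the most abundant transcripts of the granulosa cells. Of the 81 members, 78 reached 1 FPKM in at least 3 libraries and were tested, and their mean over the 9 libraries ran from 43.6 FPKM (Rps20) to 2302 FPKM (Rps27), a 52.8-fold range, with a median of 502 FPKM against 10.1 FPKM for all 14535 tested genes. A mean of 100 FPKM or more was found for 76 members and one of 1000 FPKM or more for 10. The median of the 31 small-subunit members was 513 FPKM and that of the 47 tested large-subunit members 440 FPKM. The most abundant after Rps27 were Rpl41, the gene of the smallest ribosomal protein, with 1724 FPKM, and Rpl23a, whose product sits at the exit of the nascent chain tunnel, with 1713 FPKM. Rps29 (1415), Rps21 (1387), Rps26 (1300), Rps28 (1211) and Rpl38 (1120 FPKM) followed. The lowest were Rps20 (43.6), Rpl29 (61.9), Rps18 (116), Rps27l (139) and Rps2 (156 FPKM). Rps20, Rps18 and Rps2 code for core proteins of the small subunit, and reads of such genes can fall on near-identical processed pseudogenes, so their low level is uncertain.

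The other 3 members were not tested. Rpl3l, the striated muscle copy of Rpl3, was listed at 0 in all 9 libraries. Rpl10l, a testis copy of Rpl10, was listed at 0.0774 and 0.0727 FPKM in a pair of 0 h libraries and at 0 in the other 7. Rpl39l, the copy of Rpl39 that is abundant in male germ cells, lay between 0 and 0.887 FPKM. Each stood beside an abundant ubiquitous copy: Rpl3 averaged 279 FPKM, Rpl10 835 FPKM and Rpl39 296 FPKM.

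The genes share a compact structure that the rule did not use. All 81 were found in the GENCODE M21 annotation of mm10, spread over 19 chromosomes, with 14 on chromosome 7 and 4 on the X chromosome (Rps4x, Rpl10, Rpl36a and Rpl39). The longest coding transcript had a median of 925 nt over the tested members, against 3138 nt over 12497 tested protein-coding genes. Across the 78 members the mean FPKM was higher for shorter transcripts (Spearman's rho -0.41 across genes, which share the same 9 libraries and whose length enters the FPKM). A small nucleolar RNA gene, of the class that guides modification of ribosomal RNA, lay inside 29 of the 78 members on the same strand (37.2%, 56 snoRNAs in all), against 215 of 12563 tested protein-coding genes (1.71%).

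Replicate libraries agreed closely for most members. The median coefficient of variation within a time was 5.04% over the members, against 10.7% over all tested genes and 8% over the 604 other tested genes with a mean of 100 FPKM or more. Only Rps2, Rpl26 and Rpl35a exceeded 15%. Rps2 had 184, 131 and 116 FPKM at 0 h, 91, 113 and 295 FPKM at 1 h and 113, 90.9 and 265 FPKM at 6 h, so the replicate 3 libraries of 1 h and 6 h stood far above the others. The tables list several rows for 44 members, up to 6, as for Rpl18, Rps9, Rps15a and Rps19. In Rps2, Rpl26 and Rpl35a a single row carried most of the spread. The copy Rps2-ps6 was highest in the same libraries within each later time, with 2.11, 2.72 and 8.52 FPKM at 1 h and 1.54, 2.4 and 5.07 FPKM at 6 h. How the reads were split between such copies is not given in the sources used here.

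The members' share of the summed FPKM, which is not a share of RNA mass, stayed between 8.03% and 8.95%. Their summed FPKM was 43534, 42125 and 41396 in the 0 h libraries, 49811, 47180 and 49457 in the 1 h libraries and 41250, 43951 and 46188 in the 6 h libraries. All 3 sums of 1 h lay above all others, and the 6 h sums overlapped those of 0 h. The sum over all genes was also largest at 1 h, with 493222 ± 1980, 551992 ± 22575 and 526831 ± 12949 FPKM at 0, 1 and 6 h (SD, n = 3). As a share of all FPKM, the members took 8.79%, 8.56% and 8.41% at 0 h, 8.93%, 8.95% and 8.66% at 1 h and 8.03%, 8.15% and 8.75% at 6 h. The shares of the 3 times overlapped in every pair of times. The small-subunit sum was 19388 ± 691, 22290 ± 649 and 19741 ± 978 FPKM and the large-subunit sum 22964 ± 439, 26527 ± 790 and 24055 ± 1534 FPKM at 0, 1 and 6 h, so both subunits had the same order of times.

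At 1 h against 0 h nearly all members had slightly higher FPKM, relative to the median gene. Of the 78 tested, 11 rose and 0 fell (limma on log2(FPKM + 1), Benjamini-Hochberg adjusted p below 0.05 over 14535 genes), against 9.68% and 5.98% of all tested genes. The 11 are 14.1% of the members, near that background, and 15.7% of all genes were called in either direction. The changes of the members were small and alike: the median log2 change was 0.20 (15% higher), the interquartile range ran from 0.17 to 0.24, and 76 of 78 had a positive value. The SD of the log2 change was 0.06 over the members, against 0.44 over all tested genes, whose median was 0.00. All 1 h libraries stood above all 0 h libraries in 69 of 78 members, against 18.3% of all tested genes. The 9 exceptions were Rpl21, Rpl26, Rpl28, Rpl35a, Rplp0, Rps2, Rps26, Rps27l and Rpsa. Both subunits had a median of 0.20, with 5 of 31 small-subunit and 6 of 47 large-subunit members called. The 604 other genes of 100 FPKM or more had a median of 0.16, so abundant genes as a class lay above the median gene at 1 h. Of these 604, 158 were called higher and 8 lower, and in 249 all 1 h libraries stood above all 0 h libraries. The members share the same libraries, so their counts are not independent.

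**Figure D1:**
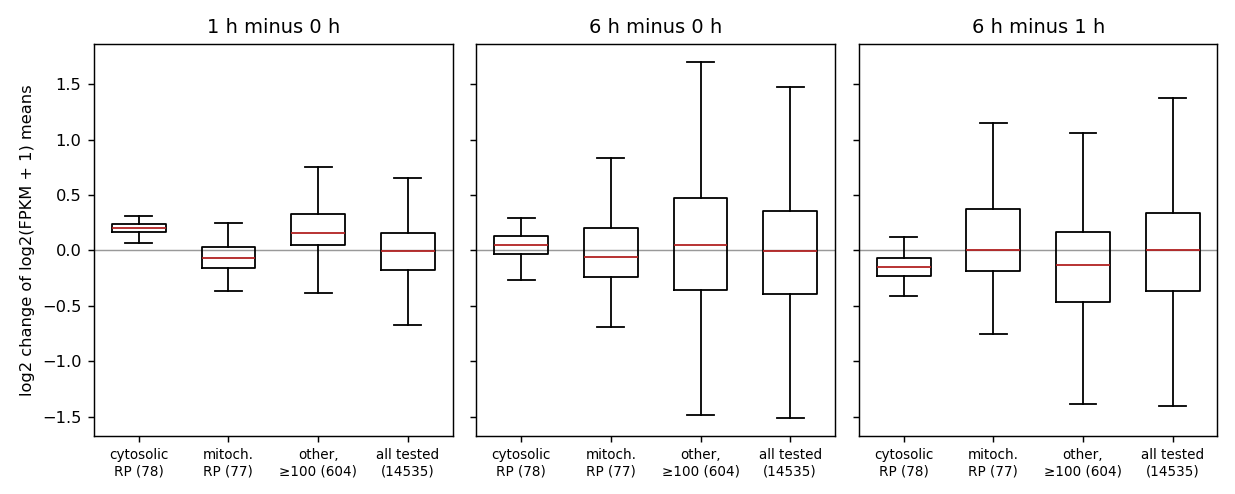
Log2 changes of log2(FPKM + 1) means (vertical axis) for the 78 tested cytosolic ribosomal protein (RP) genes, 77 mitochondrial RP genes, 604 other genes with a mean of 100 FPKM or more and all 14535 tested genes; boxes show the interquartile range with the median in red, whiskers follow the Tukey rule, and values beyond them are not drawn. The cytosolic genes form the narrowest box in each comparison, above 0 at 1 h minus 0 h (median 0.20) and below 0 at 6 h minus 1 h (median -0.15).

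The called members at 1 h were Rpl10a, Rps9, Rps14, Rpl34, Rpl7, Rps4x, Rps7, Rpl24, Rps20, Rpl6 and Rpl12, in order of their change. Rpl10a, a protein of the L1 stalk that guides tRNA out of the ribosome, had 400, 394 and 400 FPKM at 1 h, against 322, 332 and 308 FPKM at 0 h (log2 change 0.31, SE 0.09, limma adjusted p = 0.0404). Its 1 h libraries stood clearly above those of 0 h, with no overlap. Rps9, whose product helps to set decoding accuracy, had 647, 630 and 670 FPKM at 1 h, against 561, 519 and 509 FPKM at 0 h (log2 change 0.29, SE 0.08, limma adjusted p = 0.0382). Rps14 (chr18:60747098-60778546), the gene within the segment lost in human 5q- syndrome, had 834, 792 and 847 FPKM at 1 h, against 711, 650 and 675 FPKM at 0 h (log2 change 0.28, SE 0.08, limma adjusted p = 0.042). In both genes the groups did not overlap. These 3 calls were lost in 13 (Rpl10a), 12 (Rps9) and 12 (Rps14) of 18 alternative settings. Rpl34, with 405 ± 7.95 FPKM at 1 h against 337 ± 24.5 FPKM at 0 h, and Rpl7, with 544 ± 31.9 against 452 ± 7.11 FPKM, followed with log2 changes of 0.27 and 0.26. The other 6 lay between 0.21 and 0.25. Rps9 was the only called member among the 5 with a cAMP response element.

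Members that missed the threshold at 1 h had changes of much the same size. Rpl37a had a log2 change of 0.30 (SE 0.09, limma adjusted p = 0.0503) and Rpl39 one of 0.30 (SE 0.10, adjusted p = 0.0623). At an unadjusted p below 0.05, 56 of the 78 members passed, against 30.9% of all tested genes. Rps6 had 607, 583 and 619 FPKM at 1 h, against 537, 517 and 508 FPKM at 0 h, with no overlap (log2 change 0.21, SE 0.07, limma adjusted p = 0.0811). Rpsa, which codes for the laminin receptor precursor that is also a small-subunit protein, had 320, 250 and 334 FPKM at 1 h, against 331, 279 and 295 FPKM at 0 h, and its libraries overlapped (log2 change -0.01).

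The size of the 1 h difference depended on what the libraries were scaled to. The deposited values were already level on the median gene: factors that align it lay between 1 and 1.014. With each library scaled to the mean FPKM sum, 0 members were higher and 0 lower (6.89% and 18.1% of all tested genes), the members' median was 0.04 and that of all tested genes -0.14. With quantile normalization 0 were higher and 1 was lower (Rpsa, log2 change -0.29; 7.86% and 8.61% of all tested genes), with a median of -0.05. Scaled so that the median member was level, 0 were higher and 0 lower (5.94% and 22.5% of all tested genes). This last scaling removes a shift shared by the members by construction, so it cannot test one. The 11 calls also fell to 1, 1 and 0 without the 0 h replicate 1, 2 or 3, to 0 and 1 without the 1 h replicate 1 or 3 and to 2 without the 6 h replicate 2, while leaving out the 6 h replicate 3 gave 17, the 1 h replicate 2 gave 15 and the 6 h replicate 1 gave 11. The members' median lay between 0.18 and 0.23 in these 9 fits. Over all tested genes the higher calls, 1407 in the main fit, numbered 1017, 1074 and 1069 without the 0 h replicate 1, 2 or 3. They numbered 969, 1601 and 904 without the 1 h replicate 1, 2 or 3. Without the 6 h replicate 1, 2 or 3 they numbered 1331, 1265 and 1378.

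At 6 h against 0 h the members' changes were more mixed. Of the 78 tested, 10 rose and 2 fell, against 28.8% and 27.9% of all tested genes, and 15.4% of members were called in either direction, against 56.6% of all tested genes. The median log2 change was 0.05 with an SD of 0.13, more than the 0.06 at 1 h. All 6 h libraries stood above all 0 h libraries in 15 members and below in 4, against 32.9% and 32.1% of all tested genes. At an unadjusted p below 0.05, 16 members passed, against 61.1% of all tested genes.

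**Figure D2:**
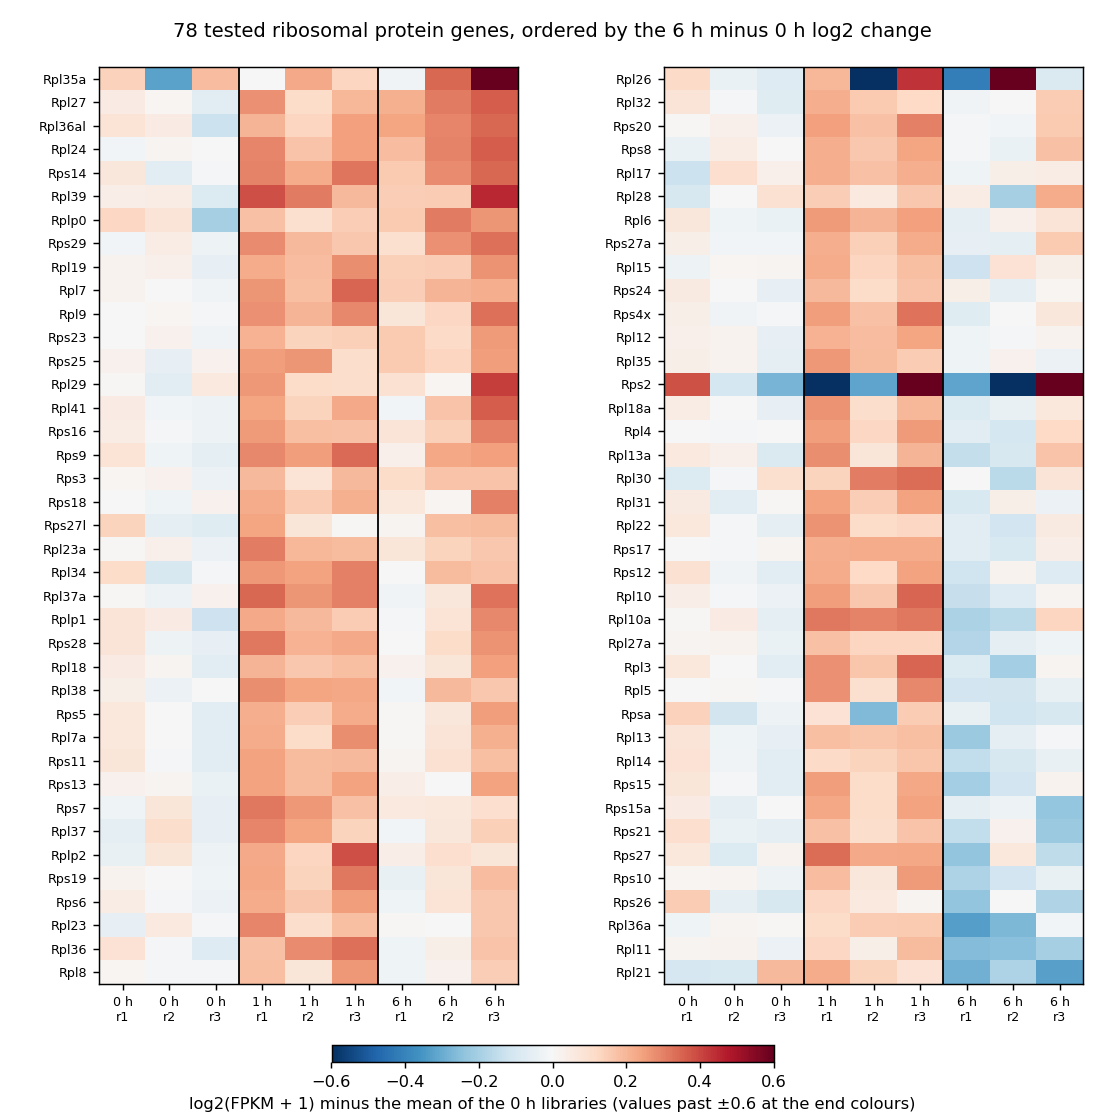
Log2(FPKM + 1) of each of the 78 tested members in each of the 9 libraries, minus the member's mean over the 0 h libraries (colour scale, with the end colours for all values beyond it); columns are libraries by time after hCG and replicate (r), rows are genes ordered by the 6 h minus 0 h change. The 1 h columns are evenly red for nearly all members, whereas the 6 h columns run from red at the upper left (Rpl27, Rpl36al, Rpl24) to blue at the lower right (Rpl36a, Rpl11, Rpl21), and Rps2, Rpl26 and Rpl35a vary between replicates.

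The members that rose at 6 h were Rpl36al, Rpl27, Rpl24, Rps14, Rplp0, Rpl39, Rpl7, Rpl19, Rps25 and Rps23. Rpl36al (chr12:69182731-69184083), the autosomal copy of the gene for protein eL42 of the tRNA exit site, had 274, 285 and 295 FPKM at 6 h, against 246, 240 and 212 FPKM at 0 h (log2 change 0.29, SE 0.07, limma adjusted p = 0.00745). Rpl27 (chr11:101442298-101445529), a large-subunit protein, had 434, 465 and 482 FPKM at 6 h, against 388, 378 and 359 FPKM at 0 h (log2 change 0.29, SE 0.07, limma adjusted p = 0.00682). Rpl24 (chr16:55966275-55971435), whose product bridges the subunits and is mutated in the mouse strain Belly spot and tail, had 441, 478 and 500 FPKM at 6 h, against 384, 393 and 388 FPKM at 0 h (log2 change 0.28, SE 0.07, limma adjusted p = 0.00688). In these genes every 6 h library stood above every 0 h library. Rplp0, the base of the stalk that recruits translation factors, had 544, 606 and 587 FPKM at 6 h, against 532, 514 and 424 FPKM at 0 h (log2 change 0.25, SE 0.09, limma adjusted p = 0.0479). Its groups stood close together, this call was lost in 14 of 18 alternatives, and without the lowest 0 h library (replicate 3) the log2 change was 0.15 (limma adjusted p = 0.167). The other stalk genes, Rplp1 with 813 ± 88.4 FPKM at 6 h against 746 ± 55.1 FPKM at 0 h and Rplp2 with 725 ± 15.6 against 691 ± 31.5 FPKM, did not pass the test.

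The members that fell at 6 h were Rpl21 and Rpl11. Rpl11 (chr4:136028265-136053428), which with Rpl5 and 5S ribosomal RNA forms a particle that can bind Mdm2 and stabilise p53, had 426, 428 and 444 FPKM at 6 h, against 516, 517 and 498 FPKM at 0 h (log2 change -0.24, SE 0.07, limma adjusted p = 0.0127). All 6 h libraries stood below all 0 h libraries, but the most abundant row of Rpl11 alone gave a log2 change of -0.11 (limma adjusted p = 0.234). Its partner Rpl5 had 240, 241 and 252 FPKM at 6 h, against 260, 262 and 259 FPKM at 0 h, without overlap, but did not pass the test (log2 change -0.09, SE 0.07, limma adjusted p = 0.266). Rpl5 did pass as lower with scaling to the mean sum (log2 change -0.19, limma adjusted p = 0.0139). It also passed with quantile normalization (log2 change -0.28, limma adjusted p = 0.00203). Rpl21 (chr5:146832890-146837032), a large-subunit protein, had 157, 169 and 153 FPKM at 6 h, against 179, 180 and 220 FPKM at 0 h (log2 change -0.27, SE 0.09, limma adjusted p = 0.0267). The groups did not overlap, and without the highest 0 h library (replicate 3) the log2 change was -0.17 (limma adjusted p = 0.0863). Without the 6 h replicate 1 or 3 it also missed the threshold, at limma adjusted p-values of 0.0688 and 0.081.

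**Figure D3:**
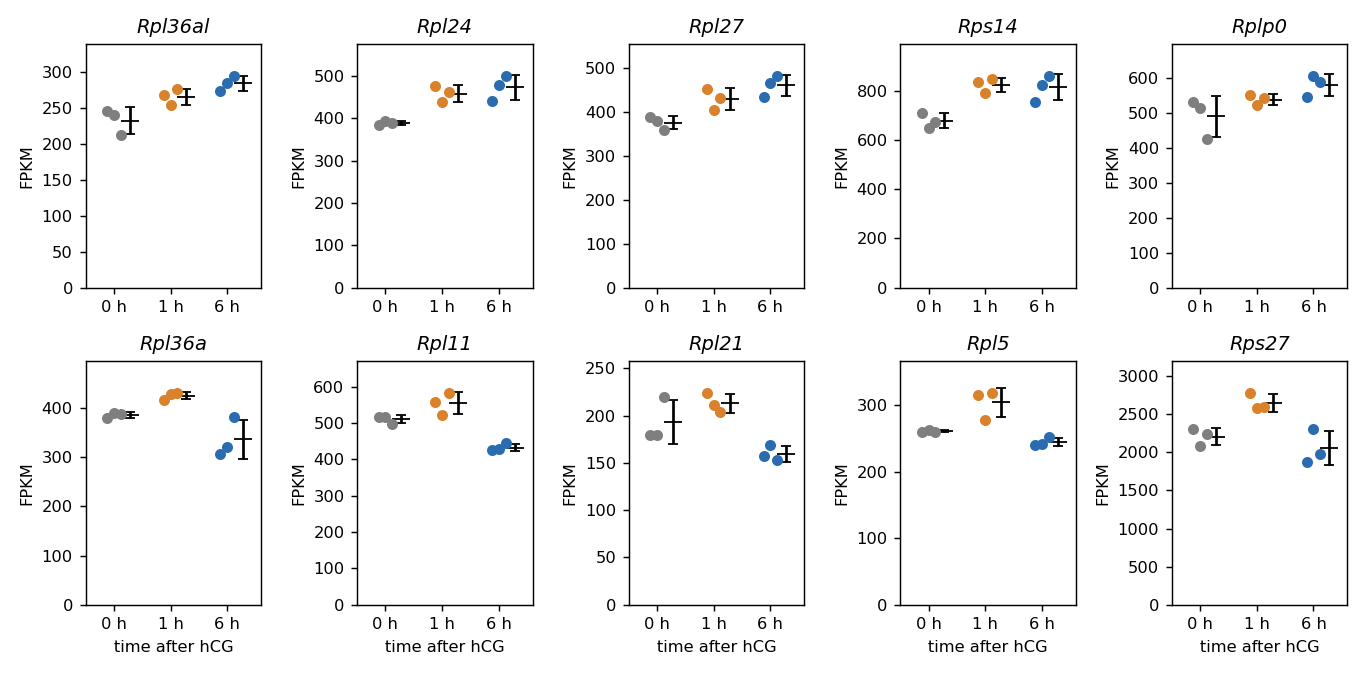
FPKM of 10 members in each library at 0, 1 and 6 h after hCG; points are libraries and bars mean ± SD (n = 3), and each vertical axis starts at 0. In the upper row the 6 h mean is above the 0 h mean (Rpl36al 285 against 233 FPKM), and in the lower row it is below (Rpl11 433 against 510 FPKM).

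The division among members at 6 h was also found under other scalings, except for quantile normalization. Scaled to the mean sum, 3 members were higher (Rpl24, Rpl27 and Rpl36al) and 9 lower, against 24.1% and 32.4% of all tested genes. Scaled so that the median member was level, 4 were higher (the same 3 and Rps14) and 4 lower (Rpl11, Rpl21, Rpl36a and Rps10), against 24.9% and 29.4% of all tested genes. Quantile normalization gave 0 higher and 25 lower members, against 26.7% and 30.4% of all tested genes, with log2 changes of 0.07, 0.07 and 0.09 for Rpl24, Rpl27 and Rpl36al. The 10 higher calls fell to 5, 3 and 4 without the 0 h replicate 1, 2 or 3, to 4 without the 1 h replicate 1 and to 4 and 3 without the 6 h replicate 2 or 3. Over all tested genes the higher calls, 4180 in the main fit, numbered 3783, 3736 and 3799 without the 0 h replicate 1, 2 or 3. They numbered 4077 without the 1 h replicate 1 and 3351 and 3612 without the 6 h replicate 2 or 3. Rpl24, Rpl27 and Rpl36al kept their call in 17 of 18 alternatives each.

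Most members had lower FPKM at 6 h than at 1 h. At 6 h against 1 h, 28 of 78 fell and 0 rose, against 26.9% and 26.7% of all tested genes (53.5% in either direction), and the median log2 change was -0.15 (SD 0.13). At an unadjusted p below 0.05, 32 members passed, against 58.8% of all tested genes. The 28 were 10 of 31 small-subunit and 18 of 47 large-subunit members. All 6 h libraries stood below all 1 h libraries in 39 members, against 30% of all tested genes. Of the 604 other genes of 100 FPKM or more, 234 were called lower and 129 higher, and 249 stood below without overlap. The 6 largest falls were in Rpl21 (log2 change -0.41), Rpl10a (-0.39), Rps27 (-0.37), Rpl11 (-0.36), Rpl36a (-0.35) and Rpl3 (-0.35). Rps27 had 1869, 2304 and 1983 FPKM at 6 h, against 2778, 2577 and 2587 FPKM at 1 h, the groups did not overlap, and 5 of 18 alternatives ended the call (SE 0.11, limma adjusted p = 0.018). Rpl3, which lies next to the peptidyl transferase centre, had 251, 231 and 269 FPKM at 6 h, against 322, 299 and 339 FPKM at 1 h (SE 0.08, limma adjusted p = 0.00418). Rpl10, a late-joining protein needed for subunit joining, had 723, 754 and 804 FPKM at 6 h, against 946, 888 and 1012 FPKM at 1 h (log2 change -0.32, SE 0.08, limma adjusted p = 0.00829). Rpl5 fell as well, to 244 ± 6.73 FPKM at 6 h against 304 ± 22.1 FPKM at 1 h (log2 change -0.31, SE 0.07, limma adjusted p = 0.00359). The count of lower members was 16 without the 1 h replicate 1 and 15 without the 6 h replicate 1. Over all tested genes the lower calls, 3904 in the main fit, numbered 3425 and 3453 in these fits. Scaled to the mean sum, 19 members were lower and 1 higher, against 23.3% and 30.4% of all tested genes. With quantile normalization 21 were lower and 0 higher, against 26.6% and 26.9%, and with the median member level 4 were lower and 4 higher, against 19.2% and 34.8%. Rpl10a, Rpl3, Rpl11 and Rpl36a kept this call in all 18 alternatives.

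Over the 3 times, in the deposited values, 67 of the 78 members had their highest mean at 1 h, 10 at 6 h and 1 (Rpsa) at 0 h. The same count over all tested genes was not made. At 1 h against 0 h, 489 of the 604 other abundant genes also had a positive change. With quantile normalization only 15 of the 78 members had one. In all, 6 members rose at 1 h against 0 h and fell at 6 h against 1 h: Rpl10a, Rpl12, Rpl6, Rps20, Rps4x and Rps7. They are 7.69% of the members, against 3.81% of all tested genes, and both comparisons share the 1 h libraries with opposite sign. Rps4x had 440, 424 and 426 FPKM at 0 h, 511, 486 and 539 FPKM at 1 h and 409, 429 and 450 FPKM at 6 h, so the 1 h libraries stood above all the others. Rpl24, Rpl7 and Rps14 rose at both 1 h and 6 h against 0 h (3.85% of the members, against 6.43% of all tested genes), and these comparisons share the 0 h libraries. Rps27a, which codes for a ubiquitin fusion, had 523 ± 10.9, 599 ± 17.9 and 529 ± 46 FPKM at 0, 1 and 6 h. It was among the 38 members called in no comparison, a count that was not made over all tested genes. The median over members of the library's deviation from the 0 h mean was 0.23, 0.16 and 0.22 (log2) in the 1 h libraries and -0.02, 0.03 and 0.16 in the 6 h libraries, so the 6 h replicate 3 was closer to 1 h than its companions.

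Ratios within paralog pairs were compared between the times, and none of the 12 comparisons passed the test. Rpl36a, the X-linked copy of the eL42 gene, had 307, 320 and 382 FPKM at 6 h, against 380, 391 and 388 FPKM at 0 h (log2 change -0.21, limma adjusted p = 0.0612) and 417, 429 and 431 FPKM at 1 h (log2 change -0.35, limma adjusted p = 0.00668). The ratio of Rpl36al to Rpl36a was 0.648, 0.615 and 0.547 at 0 h, 0.643, 0.592 and 0.64 at 1 h and 0.894, 0.889 and 0.77 at 6 h. All 6 h ratios stood above all others, and a ratio within a library does not depend on its scaling. The mean log2 difference of the ratio was 0.50 at 6 h against 0 h (single library pairs 0.25 to 0.71; exact two-sided permutation p = 0.1, the smallest that 3 against 3 libraries allow, adjusted 0.15 over 12 tests). Rps27l, a copy of Rps27 induced by p53 in human cells, stood at a ratio of 0.0597 ± 0.00357, 0.0536 ± 0.00245 and 0.0706 ± 0.00551 to Rps27 at 0, 1 and 6 h, again without overlap between 6 h and the other times. The ratio of Rpl7l1 to Rpl7 was 0.0449 ± 0.00131, 0.037 ± 0.00364 and 0.0516 ± 7.52e-04, and that of Rpl22l1 to Rpl22 was 0.0934 ± 0.00619, 0.0966 ± 0.0176 and 0.106 ± 0.0018. At 6 h against 1 h the last pair overlapped (single library pairs -0.09 to 0.48). In 8 of the 12 comparisons the groups did not overlap, and none could pass an adjusted p of 0.05 in a design of this size. Groups without overlap were common among all tested single genes. Their shares above and below were 18.3% and 17.2% at 1 h against 0 h and 32.9% and 32.1% at 6 h against 0 h. At 6 h against 1 h they were 30.5% and 30%. The comparisons of a pair also share libraries.

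**Figure D4:**
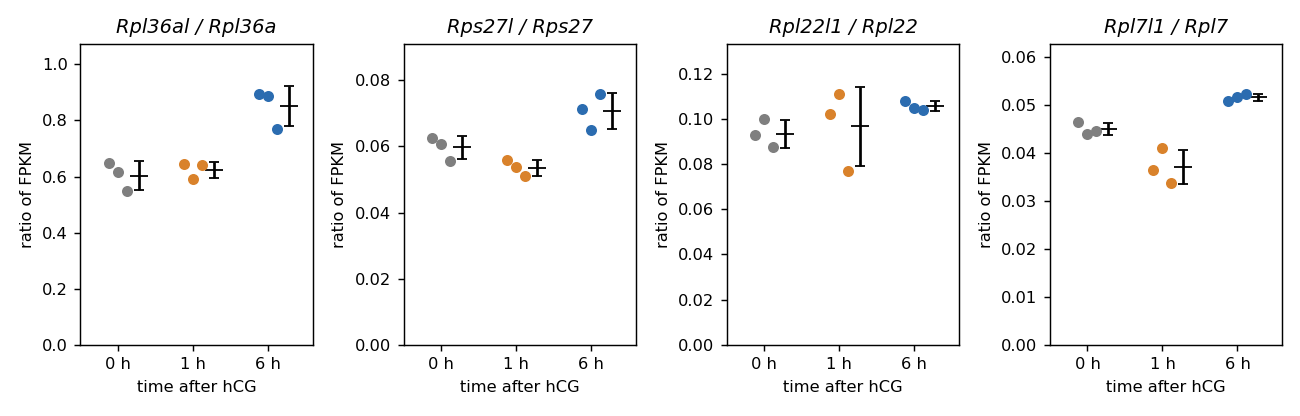
Ratio of FPKM within each library for 4 paralog pairs at 0, 1 and 6 h after hCG; points are libraries, bars mean ± SD (n = 3), and each vertical axis starts at 0. The Rpl36al to Rpl36a ratio lies between 0.77 and 0.894 in the 6 h libraries and between 0.547 and 0.648 in the others.

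The tract near the RefSeq start, which can lie away from the GENCODE start as in Rpl27, was set beside the changes as a description. At 1 h minus 0 h the median log2 change was 0.20 in the 39 members with a long tract and 0.20 in the 19 without. At 6 h minus 0 h the medians were 0.00 and 0.12, and at 6 h minus 1 h -0.18 and -0.08. Among all 58 members with a window, 39 (67.2%) had a long tract. Of the 11 members that rose at 1 h against 0 h, 8 had a window and 5 of these a long tract. Of the 10 that rose at 6 h against 0 h, 8 had a window and 3 a long tract. Of the 2 that fell, 1 had a window, with a long tract. Of the 28 that fell at 6 h against 1 h, 22 had a window and 17 a long tract. A link between tract and change was not tested. The ranges of both classes overlapped widely, from -0.24 to 0.38 with a long tract and from -0.21 to 0.29 without at 6 h minus 0 h.

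Genes for ribosomal and ribosome-bound proteins outside the symbol rule differed in level. Rpl22l1 (32.5 to 37.8 FPKM as means of the 3 times), Rpl7l1 (20.1 to 26.6) and Rps27rt (0.398 to 0.599, not tested) lay below all tested members. Gnb2l1 (Rack1, a scaffold on the small subunit) had 411, 332 and 432 FPKM at 1 h, against 303, 291 and 288 FPKM at 0 h (log2 change 0.40, SE 0.11, limma adjusted p = 0.0339), and this call was lost in 10 of 18 alternatives. Rps3a1 (497, 614 and 533 FPKM at 0, 1 and 6 h) and Fau (375, 444 and 444 FPKM), which codes for a fusion with Rps30, also had their highest or joint highest mean at 1 h. Rpl7l1, a nucleolar relative of Rpl7 involved in pre-ribosome assembly, was highest at 6 h: it had 25.4, 26.9 and 27.4 FPKM at 6 h, against 21.3, 19.8 and 19.8 FPKM at 0 h (log2 change 0.37, SE 0.07, limma adjusted p = 9.18e-04), and kept this call in all 18 alternatives. Of the 17 copies with names ending in -ps, 5 were tested. At 1 h against 0 h, 1 (20%) rose and 1 (20%) fell, against 9.68% and 5.98% of all tested genes. Rps26-ps1 had 63.6, 58.9 and 77.3 FPKM at 1 h, against 22.1, 28.9 and 9.1 FPKM at 0 h (log2 change 1.82, SE 0.52, limma adjusted p = 0.0423), and with quantile normalization the call was lost (limma adjusted p = 0.0582). Rps26 itself had a log2 change of 0.07 (limma adjusted p = 0.716). Rps12-ps3 fell to 1.2, 1.65 and 0.65 FPKM at 1 h, against 3.5, 2.28 and 2.4 FPKM at 0 h (log2 change -0.79, SE 0.22, limma adjusted p = 0.0377), and was also lower at 6 h against 0 h (log2 change -0.65, limma adjusted p = 0.0294). Reads of such a copy and its parent can be exchanged by the aligner, so these values are uncertain.

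The mitochondrial ribosomal protein genes, which code for the separate ribosome of mitochondria, had a median below 0 at 1 h, with 23 of 77 values above 0. Of the 77 tested, 0 rose and 4 (5.19%) fell at 1 h against 0 h, against 9.68% and 5.98% of all tested genes, with a median log2 change of -0.07 and an SD of 0.17, against 0.20 and 0.06 for the cytosolic members. At 6 h against 0 h, 18 (23.4%) rose and 19 (24.7%) fell, against 28.8% and 27.9% of all tested genes. Among them were Mrpl40 with 35.5 ± 3.12 FPKM at 6 h against 16.5 ± 0.384 FPKM at 0 h (log2 change 1.06) and Mrps21 with 135 ± 18.1 against 271 ± 10.2 FPKM (log2 change -1.01). Their SD of 0.37 at 6 h minus 0 h was wider than the 0.13 of the cytosolic members. The difference between both sets was not tested. The medians stayed in this order at 1 h with scaling to the mean sum (0.04 for cytosolic and -0.22 for mitochondrial members) and with quantile normalization (-0.05 and -0.14).

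Part of the translation factor and ribosome assembly genes rose. Over all tested genes 9.68% rose and 5.98% fell at 1 h, and 28.8% rose and 27.9% fell at 6 h against 0 h. Of 36 initiation factor genes, 12 (33.3%) rose and 0 fell at 1 h, and 22 (61.1%) rose and 1 (2.78%) fell at 6 h against 0 h. Eif4e, the cap-binding protein, had 67.4, 73.3 and 80.9 FPKM at 1 h, against 36.1, 36.1 and 38.9 FPKM at 0 h (log2 change 0.97, SE 0.10, limma adjusted p = 2.00e-04). Eif1, which helps to select the start codon, had 302, 324 and 324 FPKM at 6 h, against 162, 161 and 157 FPKM at 0 h (log2 change 0.98, SE 0.07, limma adjusted p = 1.63e-06). Of 10 elongation and release factor genes, 3 (30%) rose and 0 fell at 1 h and 5 (50%) rose and 0 fell at 6 h against 0 h, led at 6 h by Eif5a, which helps ribosomes past poor peptide bond formers, with 307 ± 15.8 FPKM at 6 h against 180 ± 6.27 FPKM at 0 h. Eef2, the translocase, had its highest level at 1 h, with 516, 520 and 495 FPKM at 0 h, 641, 571 and 647 FPKM at 1 h and 460, 482 and 490 FPKM at 6 h. Of 57 tested ribosome biogenesis factors, 14 (24.6%) rose and 0 fell at 1 h and 33 (57.9%) rose and 3 (5.26%) fell at 6 h against 0 h. Gnl3 (nucleostemin) had 22.3 ± 0.45 FPKM at 1 h against 14.5 ± 1.45 FPKM at 0 h, and Sbds, which releases a late assembly factor from the large subunit, had 30 ± 1.3 FPKM at 6 h against 18.1 ± 0.473 FPKM at 0 h. Nop10, a part of the box H/ACA particle, had 25.2 ± 1.26 FPKM at 6 h against 39.2 ± 0.218 FPKM at 0 h (log2 change -0.62, SE 0.06, limma adjusted p = 1.69e-05). With scaling to the mean sum, 4 initiation factor genes (11.1%) and 4 biogenesis genes (7.02%) rose at 1 h, against 6.89% of all tested genes. At 6 h against 0 h, 19 of each list rose under that scaling (52.8% and 33.3%), against 24.1% of all tested genes, and the elongation list had 3 genes higher and 2 lower.

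Single regulators of ribosome production, Mycn and Ddit4 among them, changed at 1 h. Mycn, a transcription factor that drives ribosome production, had 32.3, 22.2 and 32.3 FPKM at 1 h, against 16.2, 18 and 17.3 FPKM at 0 h (log2 change 0.70, SE 0.14, limma adjusted p = 0.00979). At 6 h Mycn had fallen to 7.6 ± 0.927 FPKM, against 17.2 ± 0.896 FPKM at 0 h, and Myc to 16 ± 1.63 FPKM, against 25.3 ± 2.93 FPKM. The list of RNA polymerase I machinery, which holds both, had 2 genes higher (11.8%) and 1 lower (5.88%) of 17 at 1 h, against 9.68% and 5.98% of all tested genes, and 4 higher and 4 lower (23.5% each) at 6 h against 0 h, against 28.8% and 27.9%. Among 28 regulators of mTORC1 and of TOP mRNAs, 5 (17.9%) rose and 2 (7.14%) fell at 1 h and 10 (35.7%) rose and 4 (14.3%) fell at 6 h against 0 h, beside the same background. Ddit4 (Redd1), an inhibitor of mTORC1, had 126, 59.6 and 114 FPKM at 1 h, against 22.9, 24.9 and 24 FPKM at 0 h (log2 change 1.95, SE 0.22, limma adjusted p = 3.46e-04). Its relative Ddit4l had 46.9, 33.2 and 42 FPKM at 0 h, 136, 96.8 and 130 FPKM at 1 h and 18.9, 18.9 and 15.8 FPKM at 6 h, so no times overlapped. Rragd, a Rag GTPase that brings mTORC1 to lysosomes, had 28.1, 28.8 and 23.6 FPKM at 6 h, against 2.97, 3.81 and 1.92 FPKM at 0 h (log2 change 2.86, SE 0.17, limma adjusted p = 6.19e-07).

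Other genes with TOP mRNAs were called in both directions at 6 h, as were all tested genes (28.8% higher and 27.9% lower at 6 h, 9.68% and 5.98% at 1 h). Of 14 tested, 2 (14.3%) rose and 0 fell at 1 h, and 6 (42.9%) rose and 3 (21.4%) fell at 6 h against 0 h. Tpt1, a translationally controlled tumour protein gene, had 849, 886 and 824 FPKM at 0 h, 1158, 1051 and 1151 FPKM at 1 h and 1604, 1720 and 1480 FPKM at 6 h, so each time stood above the one before without overlap (log2 change at 6 h against 0 h 0.91, SE 0.09, limma adjusted p = 2.15e-05). Vim, the vimentin gene, had 459 ± 29.8 FPKM at 6 h against 118 ± 20.2 FPKM at 0 h. In the list of the p53 response, 2 of 10 genes (20%) rose and 0 fell at 1 h and 5 (50%) rose and 1 (10%) fell at 6 h against 0 h. It was led by Cdkn1a, the cell cycle inhibitor p21, with 33.3 ± 2.6 FPKM at 6 h against 5.6 ± 1.29 FPKM at 0 h. Mdm2, the ubiquitin ligase that the Rpl5 and Rpl11 particle binds, had 27.9, 30.5 and 28.2 FPKM at 6 h, against 19.1, 19.6 and 19.4 FPKM at 0 h (log2 change 0.55, SE 0.07, limma adjusted p = 1.36e-04). Of 22 nascent chain and ribosome quality control genes, 1 (4.55%) rose and 0 fell at 1 h and 7 (31.8%) rose and 3 (13.6%) fell at 6 h against 0 h, so the shares that rose were near or below those of all tested genes. The list was led by Nemf, which senses stalled large subunits, with 44.6 ± 3.27 FPKM at 6 h against 21.4 ± 0.796 FPKM at 0 h.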

How the data were processed

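Granulosa cell RNA was sequenced in 9 libraries, 3 at each of 0, 1 and 6 h after hCG, grouped by the titles and treatment labels. The deposited tables give FPKM values per row, with a gene identifier, symbol and gene type. HISAT2 2.0.5 and the mm10 build are named in the submitters' processing notes, and the sources used here do not give the program, annotation and filters behind the FPKM. Trizol extraction and an Illumina TruSeq RNA kit were used, per the labels' protocols, and whether strand was kept is not stated, so antisense and overlapping genes could share reads. FPKM was summed over the 54759 rows per table to 25059 gene identifiers. The tables hold no read counts, so sequencing depth is unknown and counting intervals could not be made.

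A gene was tested if 3 libraries or more had 1 FPKM of it (14535 genes), as log2(FPKM + 1), a scale that understates the change of low genes, with limma 3.58.1 in R 4.3.3 (trended prior variance, 3 group means, no covariate, 6 residual degrees of freedom). The threshold was a Benjamini-Hochberg adjusted p of 0.05 over all tested genes, in a script that was tested on simulated data. The planned design allowed for counts or FPKM, and its FPKM branch was used. Ratios of paralogs were compared by exact two-sided permutation tests. The numbers of replicates were not taken to pair the libraries, and whether they do is unknown. Members, gene lists and tests were chosen with earlier results of these data known. Named were the most and least abundant members, the 6 highest and 6 lowest called changes per comparison, fixed paralogs and stalk genes, and up to 3 called genes with the largest change from other lists. Rpl37a and the members with a wide spread or a motif were named after their values were seen. Alternatives were a pseudocount of 0.1, no filter, other scalings, the most abundant row alone, a replicate block, a constant prior variance, a wider member rule and leaving out each library. The scalings to the median gene and to the median member were added after seeing the data. Coordinates are from GENCODE M21 and start-site sequences from RefSeq, both on mm10.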

Additional observations from a re-analysis of the deposited data

How the results depend on the processing

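Of 56 called results of single genes, 6 kept their call in all 18 alternatives each. The 56 include results of Fau, Gnb2l1 and Rpl7l1, which lie outside the member rule. The 6 were Rpl10a, Rpl11, Rpl3 and Rpl36a at 6 h against 1 h, and Rpl7l1 at 6 h against both 0 h and 1 h. No call of a member against 0 h was kept in all alternatives. The members higher at 1 h against 0 h (11) numbered 4 without the filter on low values, 0 with scaling to the mean sum or quantile normalization, 7 with the most abundant row alone, 4 with a constant prior variance and 0 with scaling to the median member, and ranged from 0 to 17 when a single library was left out. Over all tested genes the same calls numbered 1407 in the main fit and 1321 without the filter. They numbered 1218 with the most abundant row alone, 1296 with a constant prior variance and 904 to 1601 with a library left out. With quantile normalization 1 member was lower. The median change at 1 h against 0 h (0.20) was 0.04 with scaling to the mean sum and -0.05 with quantile normalization. It was 0.00 with scaling to the median member, which holds the members' median near level by construction in every comparison. That scaling, counted among the 18 alternatives, therefore cannot test a shift shared by the members. The members higher at 6 h against 0 h (10) numbered 5 without the filter, 3 with scaling to the mean sum, 0 with quantile normalization, 6 with a constant prior variance and 4 with scaling to the median member, and ranged from 3 to 10 with a library left out. Those lower (2) numbered 9, 25 and 4 with the same scalings (mean sum, quantile, median member) and 1 with the most abundant row alone, and 1 to 2 with a library left out. The members' median (0.05) was -0.05 with scaling to the mean sum and -0.13 with quantile normalization. Over all tested genes, 3351 to 4280 were higher and 3512 to 4126 lower at 6 h against 0 h with a library left out. At 6 h against 1 h, the members higher (0) numbered 1 with scaling to the mean sum, 4 with scaling to the median member and 1 with the wider rule, those lower (28) numbered 4 with scaling to the median member and 15 to 31 with a library left out, and the median (-0.15) was -0.09 with scaling to the mean sum, -0.09 with quantile normalization and -0.01 with scaling to the median member. Over all tested genes, 3346 to 3866 were lower at 6 h against 1 h with a library left out. The members' share of FPKM (8.59%, 8.85% and 8.31% at 0, 1 and 6 h) was 9.22%, 9.58% and 8.95% with the most abundant row alone. All 10 results that turned in sign did so with quantile normalization: at 1 h against 0 h Rpl12 (-0.03), Rpl24 (-0.05), Rpl6 (-0.01), Rpl7 (-0.06), Rps4x (-0.08) and Rps7 (-0.03), and at 6 h against 0 h Rpl19 (-0.01), Rpl7 (-0.01), Rps23 (-0.02) and Rps25 (-0.01). The cause was not tested. Libraries with the same replicate number were weakly correlated in their deviations (r from -0.078 to 0.147, above 0.1 in 4 of 9 pairs). For unlike numbers r ran from -0.151 to 0.086. The numbers were not taken to pair the libraries, but whether they do is unknown. With the replicate block, 0 members were higher at 1 h and 4 at 6 h against 0 h, and 23 were lower at 6 h against 1 h. Over all tested genes these counts were 1306, 4090 and 3855, against 1407, 4180 and 3904 in the main fit. The depth is unknown, and 3 libraries per time limit the precision.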
